A study of Mus musculus with 7 samples.

Results

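A set of 10 genes of T-lineage specification was examined for open chromatin in developing B cells of the mouse: Notch1, Hes1, Dtx1, Gata3, Bcl11b, Cd3e, Cd3g, Lck, Ptcra and Thy1. They were chosen by name, as 10 of 21938 coding genes, and every peak overlapping a gene body or the 30 kb on either side of it was taken. Peaks of the different lists that overlapped were merged into regions. The windows of the members held 121 of 145247 such regions, and 5 of them lay in the windows of both Cd3e and Cd3g, which are neighbours. The start site nearest to a region was that of a member for 72 and of another coding gene for 49.

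T-cell fate is set in the thymus when ligands there engage the receptor Notch1, whose cleaved form joins the DNA-binding protein Rbpj and activates targets such as Hes1, a repressor, and Dtx1, a regulator of Notch signalling. Gata3 and Bcl11b are transcription factors that then fix T-lineage identity, and Cd3e, Cd3g, Ptcra, Lck and Thy1 encode the signalling parts of the pre-T-cell receptor complex, its kinase and a surface protein of T cells. In the bone marrow the same progenitors take the B-cell path, where Notch signalling is normally weak. The question was whether Erg-deficient B-cell progenitors open chromatin at such genes.

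Accessible chromatin was profiled by ATAC-seq, which sequences DNA fragments from open sites, in B-cell progenitors sorted at 3 stages that follow each other, named pre-proB, proB and preB. There were 7 groups, each a single library. The 3 WT libraries, 1 per stage, were from Ergfl/fl mice, whose floxed alleles of Erg, an ETS-family transcription factor gene, were present with no Cre listed. The Erg KO pre-proB library was from Rag1CreT/+;Ergdelta/delta mice, in which a Cre driven from Rag1 deletes Erg from the lymphoid progenitor stage on. The 3 Rescue libraries, 1 per stage, were from Rag1CreT/+;Ergdelta/delta;IgHVH10tar mice, which carry the same deletion and a heavy chain allele that is already rearranged. The study's marker definitions of these stages exclude NK1.1+ and CD11c+ cells and name no T-cell marker. Its general antibody list does include CD3, CD4 and CD8a, and cells were sorted after lineage selection or depletion. Whether T cells were depleted before these sorts is not stated. The age of the mice and the number pooled were not given in the labels.

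Stages of the Rescue libraries were taken from the titles, which the source names contradict for all 3: the library titled pre-proB has the source name proB, the proB one has preB and the preB one has pre-proB. No group had a replicate, so each value is that of 1 library, no test was made, and how far animals differ is unknown. The 7 lists held between 76465 and 105649 peaks, and the background pileup, a stand-in for depth, lay between 3.49 and 4.60 fragments. A peak's level is given as the deposited summit fold, the pileup at the summit over that background. A list without a peak at a site could still hold fragments there, since the lowest pileup called was between 10 and 12. Erg itself had a promoter peak in all 7 lists, but the position of the deleted exon was not checked, so this does not check the genotype. Of the B-lineage genes, Pax5 and Vpreb1 had promoter peaks in every list but the Erg KO and Rescue pre-proB ones.

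Promoters of the members differed little between the genotypes at the pre-proB stage. A promoter peak, within 1000 bp of an annotated start site, was present at 8 of the 10 members in WT pre-proB, where 63.3% of coding genes had one. Both Erg KO and Rescue pre-proB had 9, against 64.2% and 64.5% of coding genes. The member that made the difference was Bcl11b. Later stages had fewer: 7 in WT proB (65.5% of coding genes), 5 in WT preB (61.4%), 7 in Rescue proB (64.8%) and 6 in Rescue preB (63.1%). Notch1, Hes1, Dtx1, Gata3 and Lck had a promoter peak in every list, as did 58.7% of coding genes. Cd3e had none in any list, a pattern shared with 31.2% of coding genes.

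**Figure D1:**
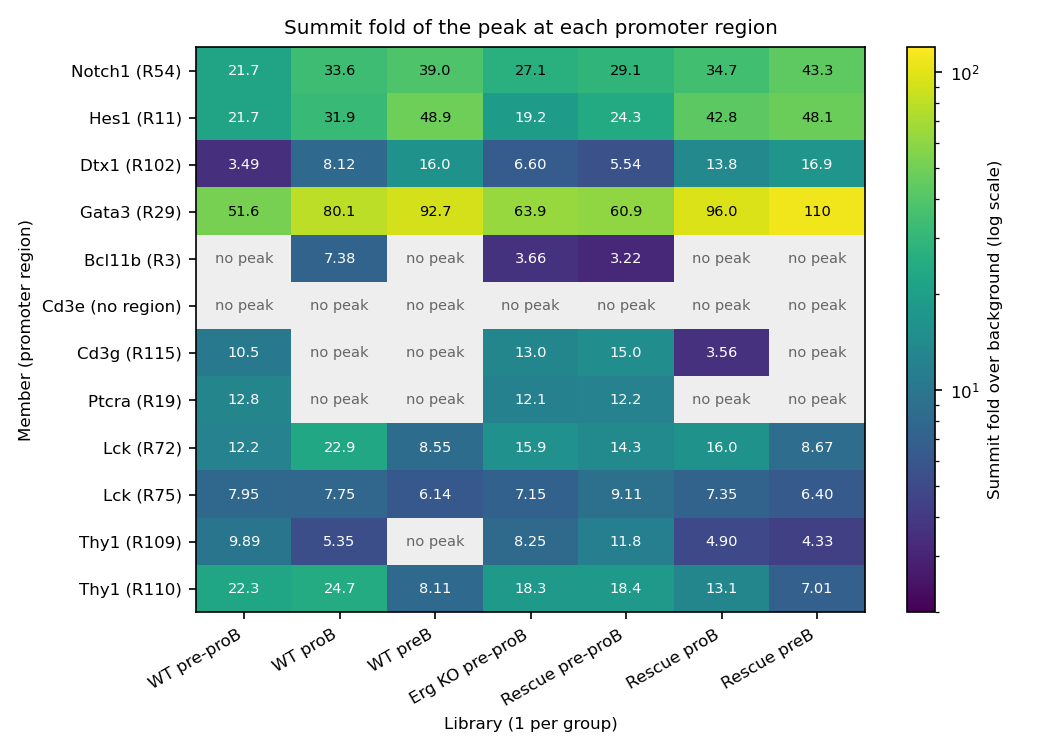
Summit fold over background (colour, log scale, with the value printed) of the peak at each promoter region of the members (rows) in the 7 libraries (columns). R numbers are names given to the 121 regions. The Hes1 value of 24.3 in Rescue pre-proB is from a peak of that region outside the promoter window. Cd3g and Ptcra had peaks in the 3 pre-proB libraries and in neither WT proB nor WT preB, and Bcl11b had weak peaks in Erg KO and Rescue pre-proB of 3.66 and 3.22 that WT pre-proB lacked.

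Bcl11b, the zinc-finger factor that commits cells to the T lineage, lies on chromosome 12 from 107910403 to 108003602, in a window of 153 kb that held 3 regions. Its promoter region, on chromosome 12 from 108003939 to 108004393 with the summit 525 bp upstream of a start site, had a fold of 7.38 in WT proB, 3.66 in Erg KO and 3.22 in Rescue pre-proB, and no peak in WT pre-proB, WT preB, Rescue proB or Rescue preB. The highest value was therefore in a WT library. The Erg KO peak rested on a pileup of 19 fragments (exact Poisson 95% interval 11.4 to 29.7) and the Rescue pre-proB peak on 17 (9.90 to 27.2), both near the limit of calling. These intervals, and all others given here, cover counting error only. The peaks stood at the 10.4 and 4.71 percentiles of the scores in their lists. With every list shortened to the length of the shortest, 76465 peaks, 8 member promoters had a peak in each of these libraries and 7 in WT pre-proB: the Bcl11b peaks of Erg KO and Rescue were dropped, as was the Dtx1 promoter peak of WT. Of all coding genes 225 (1.03%) had a promoter peak in both Erg-deficient pre-proB lists and not in WT pre-proB, and 17 (0.0775%) shared the exact pattern of Bcl11b over the 7 lists. The genes nearest to it in promoter fold over the 7 libraries were D630039A03Rik, Hoxc5 and Ptx3, at Euclidean distances of 0.403, 0.653 and 0.784 in log2 fold, with absent peaks at 0. The sequence at the summit is shown because this was the member promoter that differed at the pre-proB stage. It and the sequences that follow are the plus strand of GRCm38 from RefSeq, cut where an annotated UTR began, with capitals for matches to the motifs listed further on, and this one held none.
Bcl11b promoter, chr12:108004027-108004226: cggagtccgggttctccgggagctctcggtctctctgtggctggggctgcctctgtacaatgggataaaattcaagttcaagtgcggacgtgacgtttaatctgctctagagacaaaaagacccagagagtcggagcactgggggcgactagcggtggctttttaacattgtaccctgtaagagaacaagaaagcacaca

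The remaining regions of the Bcl11b window were weak. An intronic region 4501 bp from the start site had folds of 4.26, 3.85 and 3.75 in WT, Erg KO and Rescue pre-proB, 4.06 in WT proB and 3.92 in Rescue preB, with no peak in WT preB or Rescue proB. The other, 10205 bp inside the gene, had a peak in Rescue pre-proB alone, of 3.40. The values of the first lay within 4.26 and 3.75 wherever a peak was called. No list had a Bcl11b region at the level of the promoters of Gata3 or Notch1.

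The genes of the pre-T-cell receptor complex had peaks at the pre-proB stage in WT and in both Erg-deficient libraries. Cd3g, which encodes the gamma chain of the CD3 complex, had promoter folds of 10.5, 13.0 and 15.0 in WT, Erg KO and Rescue pre-proB, with no peak in WT proB, WT preB or Rescue preB and a weak one of 3.56 in Rescue proB. Ptcra, which encodes the pre-T-cell receptor alpha chain, had 12.8, 12.1 and 12.2 in the same 3 pre-proB libraries and no promoter peak in the other 4. The promoters of both genes thus had peaks in all 3 pre-proB libraries, and the WT value lay at the low end for Cd3g and at the high end for Ptcra. Centred on the median log2 ratio of all shared regions, the Erg KO to WT difference was 0.26 for Cd3g and -0.14 for Ptcra, and the Rescue to WT difference 0.36 and -0.23, all inside the 1.5-fold limit. Among coding genes 332 (1.51%) had a promoter peak in the 3 pre-proB lists and in neither WT proB nor WT preB. Exactly the pattern of Cd3g was found at 105 coding genes (0.479%) and that of Ptcra at 183 (0.834%). Nearest to Cd3g were Tinag, Zp3r and Cd226 (distances 0.251, 0.265 and 0.436), and nearest to Ptcra were Gm49339, Lilr4b and Cd209a (0.119, 0.119 and 0.241).

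Cd3g lies on chromosome 9 from 44969572 to 44980431, and Ptcra on chromosome 17 from 46755663 to 46763712. Both promoters are shown since their peaks differed between the WT stages. The Cd3g stretch held the motif of Gata3 and its relatives at bases 99 to 104 and an E-box at bases 30 to 35 and at 143 to 148, counted from its first base. The Ptcra stretch held the RBPJ motif at bases 27 to 32 and 79 to 84.
Cd3g promoter, chr9:44980432-44980579: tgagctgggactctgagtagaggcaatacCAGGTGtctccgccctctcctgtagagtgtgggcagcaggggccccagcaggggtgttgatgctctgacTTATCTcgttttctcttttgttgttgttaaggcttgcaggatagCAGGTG
Ptcra promoter, chr17:46763713-46763831: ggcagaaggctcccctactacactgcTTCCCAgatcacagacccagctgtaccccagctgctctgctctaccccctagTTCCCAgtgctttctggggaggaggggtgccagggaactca

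Outside the promoters, the strongest element of this kind lay beyond the 3' end of Cd3e, the gene of the CD3 epsilon chain, on chromosome 9 from 44998740 to 45009627. This region, on chromosome 9 from 44998002 to 44998626 with its summit 11288 bp downstream of the Cd3e start site, had folds of 27.9, 33.3 and 29.0 in WT, Erg KO and Rescue pre-proB, and 5.57 in Rescue proB. WT proB, WT preB and Rescue preB had no peak. The 3 pre-proB values sat well above that of Rescue proB, where the summit pileup was 24 fragments (15.4 to 35.7) against 143 (121 to 168) in WT pre-proB. Cd3e had further weak regions in its intron (4.46, 3.48 and 4.29 in WT, Erg KO and Rescue pre-proB) and 5414 bp upstream (3.88, 3.66 and 4.11), with no peak in any proB or preB list. An exonic region of 3.49 was present in WT pre-proB alone. Ptcra likewise had a region 4390 bp upstream with 7.56, 8.25 and 8.58 in WT, Erg KO and Rescue pre-proB and no peak at later stages. The Cd3e element is printed for its strength, having been picked after its values were seen, and holds no match to the motifs searched.
Cd3e 3-prime element, chr9:44998225-44998424: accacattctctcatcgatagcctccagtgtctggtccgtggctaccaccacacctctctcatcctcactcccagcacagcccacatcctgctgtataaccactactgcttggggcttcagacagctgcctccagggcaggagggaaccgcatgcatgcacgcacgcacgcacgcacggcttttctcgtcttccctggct

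**Figure D2:**
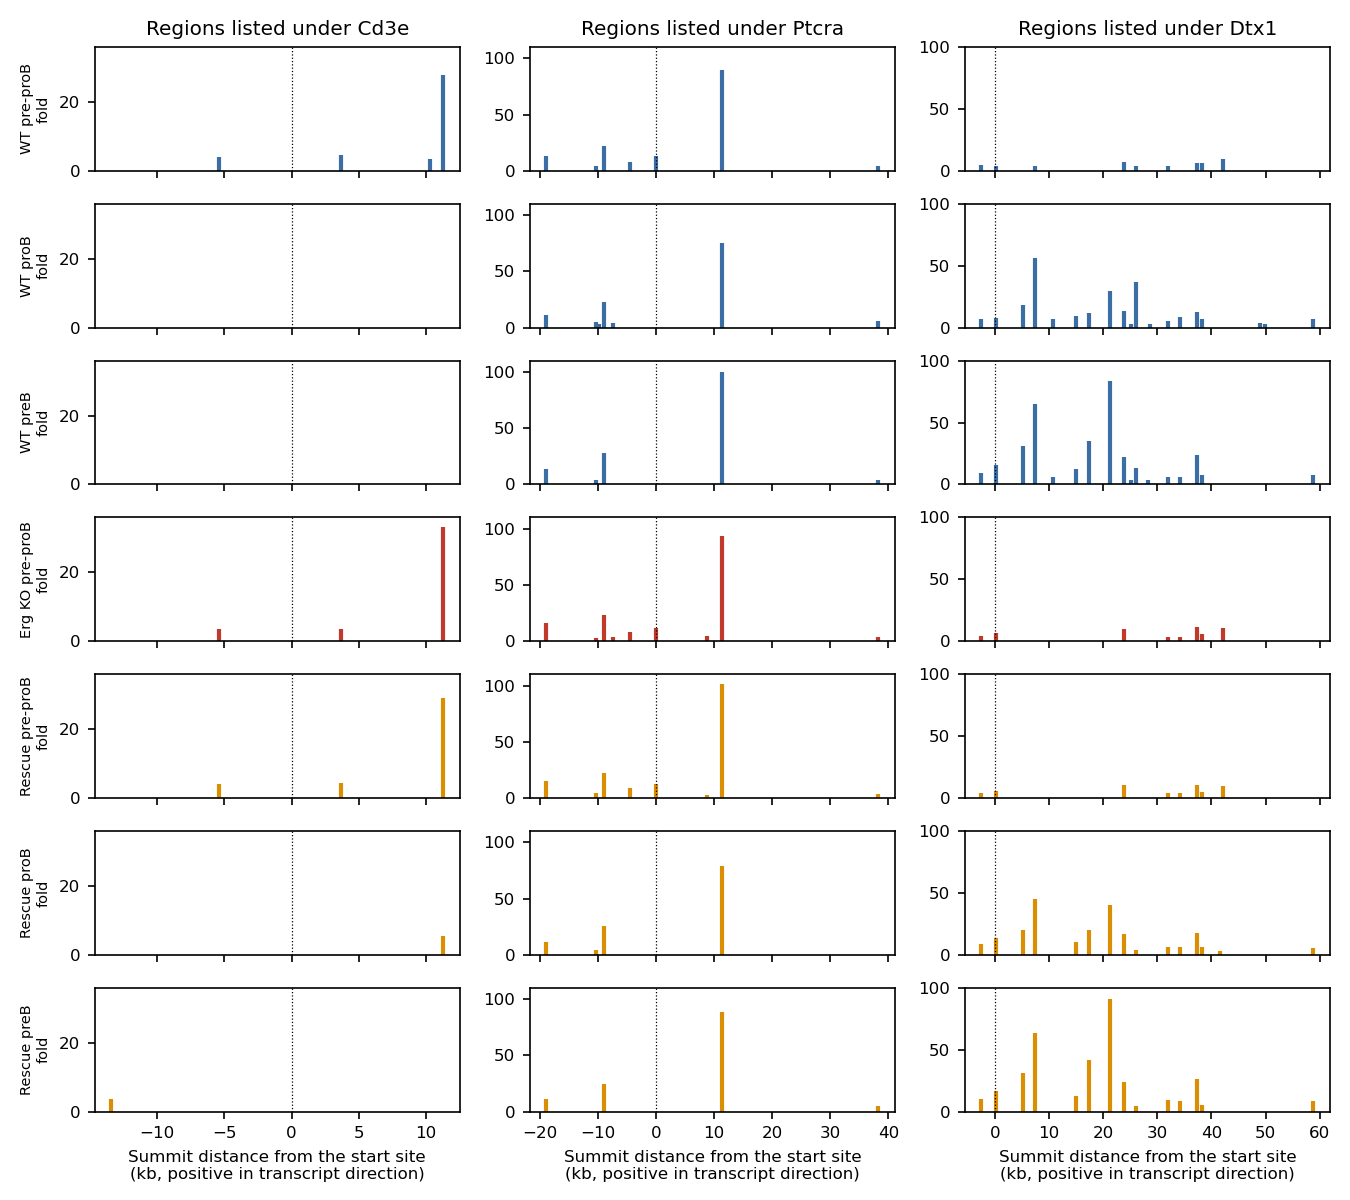
Summit fold (vertical axis, linear, from 0) of each region listed under Cd3e, Ptcra and Dtx1 against the distance of its summit from the start site in kb (horizontal axis), with 1 row per library: blue WT, red Erg KO, orange Rescue. The Cd3e element 11288 bp downstream stood at 27.9, 33.3 and 29.0 in the 3 pre-proB libraries, and the Dtx1 element 21210 bp inside the gene had peaks in the proB and preB libraries of WT and Rescue alone.

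Lists of genes of other cell types were counted beside these values. A list of 16 further T-cell genes had promoter peaks at 12, 14 and 14 in WT, Erg KO and Rescue pre-proB. Both proB lists had 11, WT preB had 9 and Rescue preB had 10. Between 61.4% and 65.5% of coding genes had a promoter peak in these lists, as above. The summed promoter fold of this list did not follow the count, with 336, 362 and 369 in WT and 367, 354 and 388 in Rescue pre-proB, proB and preB, and 346 in Erg KO. The pair that both Erg-deficient pre-proB lists had and WT pre-proB lacked was Cd4 and Tcf7. Such a difference was found at 225 (1.03%) of all coding genes. Tcf7, a transcription factor induced by Notch, had promoter folds of 5.13 in Erg KO and 4.83 in Rescue pre-proB, yet 10.3 in WT proB and 17.1 in WT preB. Cd4, a coreceptor, had 5.86 and 3.22 in Erg KO and Rescue pre-proB and 3.14 in WT proB. For both genes the Erg KO and Rescue pre-proB folds were below the median folds of those lists, 8.43 and 8.58. Cd8a had 19.2, 20.5 and 30.2 in WT, Erg KO and Rescue pre-proB, and Cd3d and Zap70 had no promoter peak in any list. The NK and innate lymphoid list had peaks at 7 of 10 promoters in each pre-proB list, 5 in WT proB, 4 in WT preB, 7 in Rescue proB and 3 in Rescue preB. Its summed promoter fold ranged from 117 to 136 in the pre-proB lists and from 48.9 to 88.2 in the others. Ncr1 and Gzmb had no peak in any of the 7. Klrb1c had 39.5, 35.2 and 49.7 in WT, Erg KO and Rescue pre-proB and at most 5.54 in the others. Eomes was lower in the pre-proB lists (4.07, 6.05 and 5.72) than in the others (8.12 to 15.7). The plasmacytoid dendritic list had peaks at 10 of 10 in every pre-proB list and at 8 or 9 in the others, and its summed fold ranged from 526 to 603 in the pre-proB lists and from 357 to 589 in the others. Siglech, Bst2, Ccr9, Pacsin1, Cox6a2, Tlr7 and Irf8 were higher in each pre-proB list than in any other. Siglech had 101, 103 and 113 in WT, Erg KO and Rescue pre-proB against 18.6 to 54.5, and Pacsin1 57.4, 61.4 and 58.8 against 5.91 to 11.6. Cox6a2 had peaks in the same lists as Ptcra. Tcf4, Spib and Tlr9 were lower, with Spib at 48.1, 49.8 and 55.9 against 83.3 to 174. The myeloid list had between 4 and 6 of 10 in every list, with Elane, Ly6g and S100a8 at 0 throughout. Its summed fold ranged from 99.8 to 122 in the pre-proB lists and from 45.4 to 83.5 in the others. Itgam had 27.9, 25.7 and 29.8 in WT, Erg KO and Rescue pre-proB and at most 8.69 in the others. Cebpa had 59.3 to 71.1 in the pre-proB lists and at most 35.4 in the others. Csf1r and Fcgr3 went the other way, lower in each pre-proB list than in any other. The part of such cells in the pre-proB signal of Cd3e, Cd3g and Ptcra was not tested, and a site open in a few cells cannot be told apart from a site weakly open in all.

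Lck, the kinase that signals from CD4, CD8 and the receptor complex, and Thy1, a surface glycoprotein of thymocytes, each had regions with a peak in all 7 lists. The Thy1 promoter, however, had no peak in WT preB. Lck, on chromosome 4 from 129548344 to 129573641, has 3 annotated start sites and 2 promoter regions. The first had folds of 12.2, 22.9 and 8.55 in WT pre-proB, proB and preB, 15.9 in Erg KO, and 14.3, 16 and 8.67 in Rescue pre-proB, proB and preB. The second lay between 6.14 and 9.11 in all 7 libraries. An intronic Lck region 1865 bp from a start site had the stage pattern of the Cd3e element, with 11.6, 11.9 and 10.01 in WT, Erg KO and Rescue pre-proB, 3.79 in Rescue proB and no peak in WT proB, WT preB or Rescue preB. A region 6969 bp upstream, nearest to Fam167b, had 18.0, 18.0 and 19.5 in those pre-proB libraries, 5.17 in WT proB, 4.38 in WT preB, 14.9 in Rescue proB and 8.25 in Rescue preB. At the latter, the Rescue value was higher than the WT value at the proB and preB stages. The strongest peak of the Lck window, 41.7 in WT pre-proB and 81.9 in Rescue preB, lay at the start site of the neighbour Hdac1. The same held for Notch1, where the strongest peak (66.8 to 94.0) was at the start site of Sec16a, for Ptcra (75.1 to 101), where it was at that of Cnpy3, and for Thy1 (46.9 to 51.2), where it was at that of Usp2. In the windows of Cd3e and Cd3g it was nearest to Cd3d (41.7 to 50.9). These regions had a peak in all 7 lists and are among the 121.

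Thy1, on chromosome 9 from 44043384 to 44048579, had a region at its first start site with folds of 9.89, 8.25 and 11.8 in WT, Erg KO and Rescue pre-proB, 5.35 in WT proB, and 4.90 and 4.33 in Rescue proB and preB. WT preB had no peak there. A region centred 1295 bp inside the gene had 22.3, 24.7 and 8.11 in WT pre-proB, proB and preB, 18.3 in Erg KO, and 18.4, 13.1 and 7.01 in the Rescue libraries in the same order. Both regions were lowest at the preB stage in either genotype, and the Erg KO and WT pre-proB values differed by at most 1.26-fold after centring. Of coding genes 256 (1.17%) had a promoter peak in every list but WT preB, and those nearest to Thy1 were Tmem176b, Tmem176a and Speg (1.28, 1.28 and 1.73). The sequence at the first Thy1 start site is shown because WT preB alone lacked its peak.
Thy1 promoter, chr9:44043854-44044039: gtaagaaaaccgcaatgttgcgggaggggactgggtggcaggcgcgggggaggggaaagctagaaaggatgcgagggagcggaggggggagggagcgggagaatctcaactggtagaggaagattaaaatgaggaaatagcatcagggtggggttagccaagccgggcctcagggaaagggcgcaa

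Gata3, a zinc-finger factor needed for T-cell and innate lymphoid development, had the strongest promoter of the members. It lies on chromosome 2 from 9857078 to 9890034. Its fold was 51.6, 63.9 and 60.9 in WT, Erg KO and Rescue pre-proB, then 80.1 and 92.7 in WT proB and preB and 96.0 and 110 in Rescue proB and preB. The values were higher at each later stage in both genotypes. The Erg KO and WT pre-proB values differed by 1.19-fold after centring. An exonic region 9253 bp from the start site had 7.37 in WT pre-proB, 11.5 in Erg KO, 9.11 in Rescue pre-proB and 3.79 in Rescue proB, with no peak in WT proB, WT preB or Rescue preB. The Erg KO value there was 1.51-fold that of WT pre-proB after centring, just past the limit used. The window also held 4 weak regions with a peak in Erg KO and none in WT pre-proB, of 3.11, 3.30, 4.03 and 3.85, and 2 of them had a WT proB peak as well. All 4 were nearest to the start site of another coding gene, 9230102O04Rik.

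Notch1, the receptor gene, had promoter folds of 21.7, 27.1 and 29.1 in WT, Erg KO and Rescue pre-proB, followed by 33.6 and 39.0 in WT proB and preB and 34.7 and 43.3 in Rescue proB and preB. The gene lies on chromosome 2 from 26457903 to 26516663, and its window, the richest of the 10 with 25 regions, contained sites of opposite stage. A group toward the 3' end of the gene and far upstream belonged to pre-proB cells. An exonic region 44895 bp from the start site had 28.3, 29.0 and 28.4 in WT, Erg KO and Rescue pre-proB, 3.69 in WT proB, 9.13 in Rescue proB, 4.54 in Rescue preB and no peak in WT preB. A region 28157 bp upstream had 18.2, 18.5 and 21.8 in the pre-proB libraries and no peak in the other 4. Another set belonged to proB and preB cells. An intronic region 16852 bp from the start site had 12.7 and 27.4 in WT proB and preB, 15.8 and 25.8 in Rescue proB and preB, and no peak in any pre-proB list. Of the 25 Notch1 regions 7 were found in pre-proB lists alone and 6 in proB or preB lists alone, where each class held 22.0% of all regions in coding-gene windows. At the sites just named, the 3 pre-proB values lay within 18.2 to 21.8 and 28.3 to 29.0, whatever the genotype.

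Hes1, the Notch target that encodes a repressor, had its promoter region at 21.7, 31.9 and 48.9 in WT pre-proB, proB and preB, at 19.2 in Erg KO pre-proB, and at 24.3, 42.8 and 48.1 in Rescue pre-proB, proB and preB. An upstream region 3818 bp from the start site had no peak in the 3 pre-proB libraries and folds of 22.3 and 15.1 in WT proB and preB and 14.3 and 12.8 in Rescue proB and preB. The Hes1 gene lies on chromosome 16 from 30064384 to 30067796. Its strongest region, 25968 bp upstream, varied between 62.8 and 100 over the 7 libraries. Of the other genes of the Notch pathway, Notch2, Rbpj, Maml1, Nrarp, Lfng and Adam10 had a promoter peak in every list. Notch3 had one in the WT, Erg KO and Rescue pre-proB lists and in both preB lists, and lacked one in both proB lists.

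Dtx1, which encodes the E3 ligase Deltex1, held more regions of the proB and preB lists alone than any other member. It lies on chromosome 5 from 120680202 to 120711927. Its promoter fold was 3.49, 6.60 and 5.54 in WT, Erg KO and Rescue pre-proB, then 8.12 and 16 in WT proB and preB and 13.8 and 16.9 in Rescue proB and preB. The WT pre-proB value was the lowest of the 7. The Erg KO value was 1.82-fold and the Rescue value 1.42-fold that of WT pre-proB after centring. The pileups were 35 (24.4 to 48.7), 30 (20.2 to 42.8) and 17 (9.90 to 27.2) fragments in Erg KO, Rescue and WT, not adjusted for depth. Their intervals overlap, which does not show that the counts agree, and the difference was not tested. Inside the gene 21210 bp from the start site, an intronic region had 29.4 and 83.5 in WT proB and preB, 40.3 and 91.2 in Rescue proB and preB, and no peak in any pre-proB list. Elements 17380, 14902 and 5212 bp from the start site had peaks in the same 4 lists, with WT preB folds of 35.3, 12.3 and 31.3 and Rescue preB folds of 41.7, 13.0 and 31.2. Of the 22 Dtx1 regions 12 were found in proB or preB lists alone, a class that held 22.0% of all regions in coding-gene windows.

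Some B-stage elements of Dtx1 were already detected in WT pre-proB. An intronic region 7293 bp from the start site had 4.07 in WT pre-proB and no peak in Erg KO or Rescue pre-proB, beside 56.3 and 64.7 in WT proB and preB and 45.2 and 63.3 in Rescue proB and preB. The region 26066 bp from the start site also had 4.07 in WT pre-proB and none in the Erg-deficient pre-proB libraries. It had 36.7 and 13.4 in WT proB and preB but 3.79 and 4.33 in Rescue proB and preB, so WT and Rescue stood apart at both later stages. Each WT pre-proB peak rested on 20 fragments (12.2 to 30.9), near the calling limit, and neither was left when the lists were shortened to 76465 peaks. The sequences are shown for the strongest Dtx1 element and for this region, which ranked first by score among those of WT pre-proB and neither Erg-deficient list. The former held an RBPJ motif at bases 93 to 98 and the latter at bases 72 to 77 and 120 to 125.
Dtx1 intron, 21210 bp, chr5:120690617-120690816: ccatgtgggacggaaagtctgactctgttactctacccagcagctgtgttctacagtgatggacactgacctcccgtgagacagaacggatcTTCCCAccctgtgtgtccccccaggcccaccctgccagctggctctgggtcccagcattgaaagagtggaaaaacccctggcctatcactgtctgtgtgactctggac
Dtx1 intron, 26066 bp, chr5:120685761-120685960: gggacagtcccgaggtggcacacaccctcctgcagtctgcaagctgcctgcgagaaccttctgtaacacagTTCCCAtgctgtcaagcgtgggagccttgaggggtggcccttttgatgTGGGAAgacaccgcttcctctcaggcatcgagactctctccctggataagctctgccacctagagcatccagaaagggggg

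**Figure D3:**
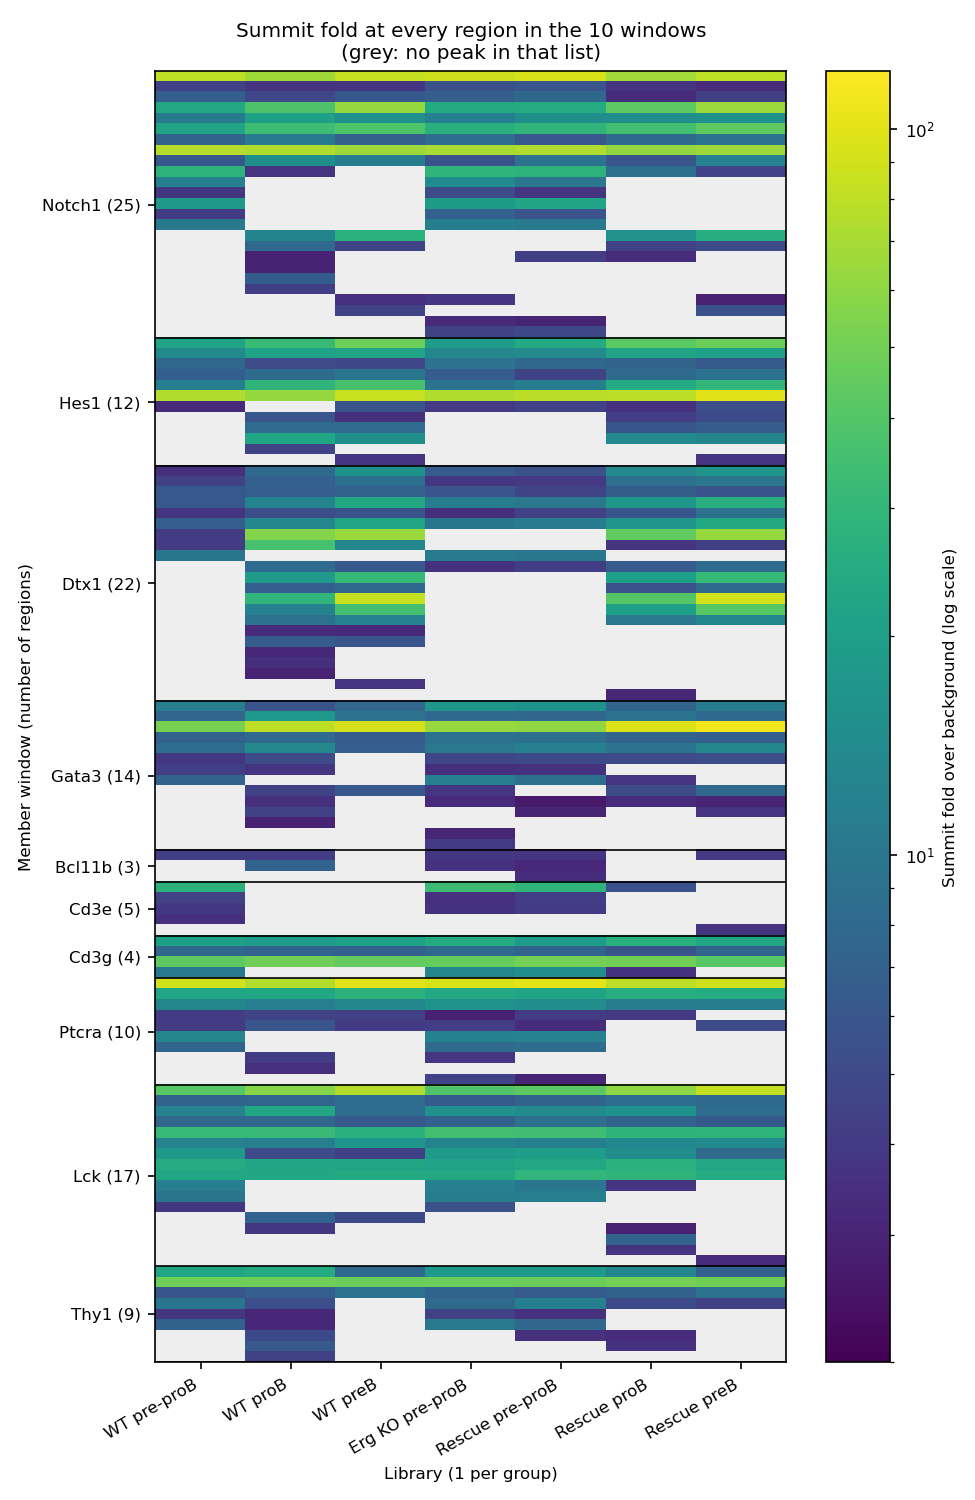
Summit fold (colour, log scale, grey for no peak) of every region in the 10 windows, with 1 row per region grouped by member (the number of regions in brackets, with regions of both CD3 windows under the nearer gene) and 1 column per library. Of the 121 regions 44 (36.4%, against 34.4% of all regions in coding-gene windows) had a peak in every list, 19 (15.7%, against 22.0%) in pre-proB lists alone and 33 (27.3%, against 22.0%) in proB or preB lists alone.

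Counted over all members, the share of regions found in the Erg-deficient lists and not in WT was close to that of coding genes at large. Of 84 member regions in WT or Erg KO pre-proB, 11 (13.1%, exact 95% interval 6.72 to 22.2) were in Erg KO alone of the pair, against 11.9% of regions in all coding-gene windows, and 3 (3.57%, 0.743 to 10.1) were in WT alone, against 5.46%. The 11 had folds between 3.11 and 4.58, while the 70 shared ones reached 93.6 in Erg KO. Of the 11, 4 were nearest to the start site of a member. Both Erg-deficient pre-proB lists, and not WT pre-proB, held 6 of 88 (6.82%, 2.54 to 14.3), against 7.07%. WT pre-proB without either of them held 3 of 88 (3.41%, 0.709 to 9.64), against 3.02%. In an Erg-deficient list at any stage, and in no WT list, were 11 of 121 (9.09%, 4.63 to 15.7), against 13.9%, and 15 (12.4%, 7.11 to 19.6) were in a WT list and no Erg-deficient list, against 9.08%. Each interval contained the background share.

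The regions in both Erg-deficient pre-proB lists and not in WT pre-proB were weak. By Erg KO score they were led by a region downstream of Ptcra, 8739 bp from its start site and nearest to Cnpy3, with 4.58 in Erg KO and 3.04 in Rescue pre-proB and no peak elsewhere. A region 36832 bp upstream of Notch1 had 4.40 and 4.83 in the same libraries and none in the others. The Bcl11b promoter came next. A Dtx1 region 34179 bp downstream of the start site had 3.66 and 4.29 in Erg KO and Rescue pre-proB, 8.31 and 6.14 in WT proB and preB, and 6.46 and 8.67 in Rescue proB and preB. The fifth lay 9230 bp upstream of the Gata3 start site, within the annotated extent of the gene, with 3.30 and 2.68 in those pre-proB libraries and 3.51 in WT proB. Of the 6 regions 3 had a WT proB peak. The strongest region in an Erg-deficient list and in no WT list was 32835 bp downstream of an Lck start site, and nearest to Marcksl1. It had a fold of 7.35 in Rescue proB and none in the other 6 lists. The next were the Notch1 and Ptcra regions above, then a Gata3 region 11851 bp upstream with 4.03 in Erg KO and a Cd3e region 13415 bp upstream with 3.71 in Rescue preB. The first region of each kind is printed below. The Ptcra stretch held an ETS motif at bases 122 to 129, and the Lck stretch a RUNX motif at bases 137 to 143 and an ETS motif at bases 147 to 154.
Ptcra downstream, 8739 bp, chr17:46754873-46755072: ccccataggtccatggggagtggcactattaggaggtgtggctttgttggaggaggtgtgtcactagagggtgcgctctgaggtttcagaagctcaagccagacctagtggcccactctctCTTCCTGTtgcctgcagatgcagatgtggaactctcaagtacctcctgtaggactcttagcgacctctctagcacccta
Lck downstream, 32835 bp, chr4:129525437-129525636: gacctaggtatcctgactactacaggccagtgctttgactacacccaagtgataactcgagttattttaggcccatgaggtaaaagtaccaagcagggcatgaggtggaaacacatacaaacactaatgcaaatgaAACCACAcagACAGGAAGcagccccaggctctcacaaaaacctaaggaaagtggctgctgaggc

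At the regions shared with WT pre-proB, folds lay close to it. The comparisons with Erg KO and with Rescue share that WT library, so they are set side by side and not as independent evidence. Of 70 member regions shared with Erg KO, 4 (5.71%, 1.58 to 14) were more than 1.5-fold higher in Erg KO after centring, against 2.98% of all shared regions, and 0 were lower, against 2.62%. The 4 were the Dtx1 promoter, the Gata3 exonic region, a Dtx1 region 37385 bp downstream of the start site (6.20 in WT and 11.2 in Erg KO) and a Notch1 region 32692 bp upstream (4.07 and 7.15). Of 69 shared with Rescue pre-proB, 0 were higher, against 2.86%, and 1 (1.45%, 0.0367 to 7.81) was lower, against 3.21%. That region lay 31186 bp upstream of Hes1, with 6.78 in WT and 4.65 in Rescue. The median centred log2 ratio of the members was 0.03 for Erg KO and -0.06 for Rescue, with quartiles of -0.14 to 0.24 and -0.21 to 0.12, beside -0.16 to 0.17 and -0.17 to 0.17 for all shared regions. The split depended on the scale: by percentile of score within the list, 15 member regions were higher and 2 lower in Erg KO (16.6% and 4.74% of all shared), and 12 higher and 2 lower in Rescue (20% and 3.59%), while without centring 4 were higher and 0 lower in Rescue (6.90% and 1.40%).

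**Figure D4:**
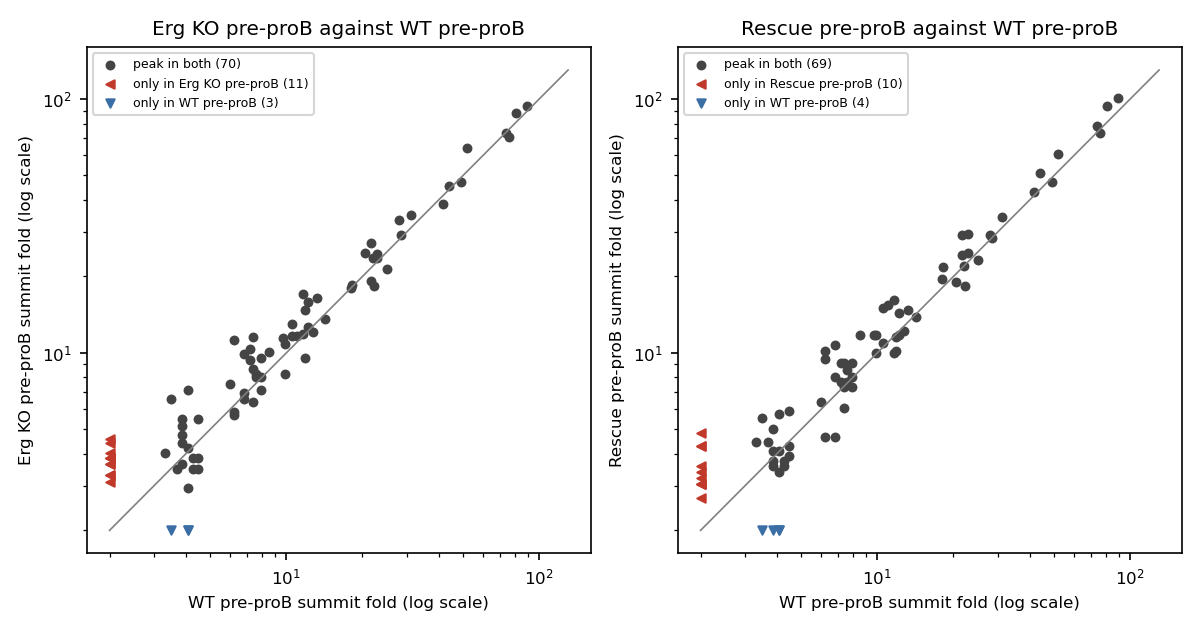
Summit fold in Erg KO pre-proB (left) and Rescue pre-proB (right) against WT pre-proB for the member regions, on log axes, with triangles on the lower and left margins for regions with a peak in 1 library of the pair. The 70 regions shared with Erg KO and the 69 shared with Rescue lie along the line of equal fold, and the 11 and 10 without a WT peak have folds below 5.

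The WT stages were then compared. Of 106 member regions in WT pre-proB or WT proB, 18 (17.0%, 10.4 to 25.5) were in pre-proB alone, against 25.3% of all regions, and 33 (31.1%, 22.5 to 40.9) in proB alone, against 22.4%, a share just below the interval. These intervals treat regions as independent, which neighbours are not. The proB set was led by Dtx1 with 11 regions and Notch1 with 6. Among the 18, the Notch1 window held 5 and that of Cd3e also 5, of which 4 lay in the Cd3g window as well. Erg KO pre-proB had 17 of the 18 (94.4%, 72.7 to 99.9), against 92.2% of all such regions, and 5 of the 33 (15.2%, 5.11 to 31.9), against 11.9%. Rescue proB had 5 of the 18 (27.8%, 9.69 to 53.5), against 33.1%: the Cd3g promoter, the Cd3e 3' element, the Lck intron, the Gata3 exonic region and a Hes1 region. Their Rescue proB folds were low, between 3.56 and 5.57. Rescue preB had 1 of the 18 (5.56%, 0.141 to 27.3), against 15.8%, and Rescue proB had 17 of the 33 (51.5%, 33.5 to 69.2), against 47.7%. If the source names give the true stages, the Rescue proB library is the one titled pre-proB, and it has 88.9% of the 18 and 18.2% of the 33, against 93.8% and 13.7% of all such regions.

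Rescue and WT were compared at matched titles. Rescue alone had 10 of 83 pre-proB regions (12.0%, 5.93 to 21), against 14.1%, and WT alone 4 (4.82%, 1.33 to 11.9), against 4.52%. At the proB stage Rescue alone had 8 of 96 (8.33%, 3.67 to 15.8), against 14.8%, and WT alone 21 (21.9%, 14.1 to 31.5), against 16.9%. Those 21 included 5 in the Dtx1 window and 3 in each of the Notch1, Gata3, Ptcra and Thy1 windows. At the preB stage Rescue alone had 8 of 76 (10.5%, 4.66 to 19.7), against 15.0%, and WT alone 5 (6.58%, 2.17 to 14.7), against 6.26%. Each of these background shares lay inside the interval of the members. By source names the shares in WT alone were 22.8% at pre-proB, 26.9% at proB and 9.64% at preB, against 27.9%, 20.2% and 8.73% of all regions. The preB stage, and not pre-proB, then had the lowest share among the members and among all regions.

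Sequence at the summits of the member regions had a median GC content of 56.0% in the 200 bp around the summit beside 49.5% over all 117384 regions in coding-gene windows. Motifs were searched there on both strands, and none of them contains another, though matches can overlap in place. The EBF motif CCCNNGGG was in 24 of 121 member regions (19.8%, 13.1 to 28.1), against 9.58%, which lies below the interval. The part of base composition in this was not tested.

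RBPJ, the DNA-binding partner of Notch (TGGGAA), was in 24 (19.8%, 13.1 to 28.1), against 16.1%. The E-box CACCTG was in 31 (25.6%, 18.1 to 34.4), against 20.4%.

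The other motifs were no more frequent than elsewhere. RUNX (TGTGGTT) was in 9 (7.44%, 3.46 to 13.7), against 10.5%. The ETS motif (ACAGGAAG or ACCGGAAG) was in 7 (5.79%, 2.36 to 11.6), against 6.62%. The motif of Gata3 and its relatives (AGATAA) was in 4 (3.31%, 0.908 to 8.25), against 7.41%. The TCF motif, read by the factor that Tcf7 encodes (CTTTGAA), was in 2 (1.65%, 0.201 to 5.84), against 4.10%.

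The ETS motif, that of Erg's family, was in 0 of the 18 regions of WT pre-proB and not WT proB (exact upper limit 18.5%) and in 1 of the 33 of WT proB and not WT pre-proB (3.03%, 0.0767 to 15.8), against 4.52% and 8.54% of all such regions. A match is a string of letters and shows no binding.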

How the data were processed

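ATAC-seq peak lists of 7 libraries, 1 for each group in the sample titles, were analysed. According to the study's methods, paired-end reads were aligned to mm10 (GRCm38) using Bowtie2, and MACS2 called peaks in each library separately. The submitters' processing notes also name CASAVA 1.8.2 and Picard. Versions of the other tools, options and the treatment of duplicates were not given in the sources used here. Sonication is named in the methods and the Tn5 transposase in the labels, so fragment ends may differ in kind. The score the authors deposited follows the −log10 q. The fold deposited by the authors is a ratio of summit pileup to background, and the −log10 p and −log10 q the authors deposited belong to the summit.

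Folds below 60 were whole multiples of a step in 100% of peaks (tolerance 0.02 of a step), which gave summit pileups and the background pileup. Genes came from GENCODE M21 (basic). Peaks overlapping by at least 1 bp were merged into regions, and a region was listed under the member with the nearest start site. Where a list had several peaks in a region, the strongest was used. Log2 ratios of folds were centred on the median over all regions shared by both lists, and past 1.5-fold was called. Backgrounds were all 117384 regions in coding-gene windows of the same size, or all 21938 coding genes. Shares carry exact (Clopper-Pearson) 95% intervals. No significance test was run, and each group had 1 library.

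Named items were all members, their promoter peaks, the strongest region of a window, the 5 highest-scoring regions of 3 classes and the 3 genes nearest in promoter pattern. Other regions were named after their values were seen. Members, gene lists and motifs were chosen with earlier results of these data known. Alternatives covered list length, threshold, windows, overlap, stage labels, scaling and motif window. Some genes of the fixed lists are not reported here. The code was tested on simulated lists. Python 3.11.15, pandas 2.3.3, NumPy 2.4.6 and SciPy 1.17.1 were used.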

Additional observations from a re-analysis of the deposited data

Results flagged for a closer look

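From stage to stage the number of regions with a peak in a member window moved in opposite directions in WT and Rescue in 7 of 20 cases (35.0%), against 12.1% of 43876 such cases over all coding-gene windows, those with few or no regions included. Each genotype has 1 library per stage, so these differences were not tested. From pre-proB to proB, the Notch1 window went from 15 to 16 regions in WT (a change of 1) and from 18 to 13 in Rescue (-5). In the same step Gata3 went from 8 to 11 in WT (3) and from 10 to 9 in Rescue (-1), Bcl11b from 1 to 2 in WT (1) and from 3 to 0 in Rescue (-3), and Thy1 from 6 to 9 in WT (3) and from 7 to 6 in Rescue (-1). Lck went from 12 to 11 in WT (-1) and from 11 to 13 in Rescue (2). From proB to preB, Notch1 went from 16 to 13 in WT (-3) and from 13 to 14 in Rescue (1), and Bcl11b from 2 to 0 in WT (-2) and from 0 to 1 in Rescue (1). With all lists shortened to 76465 peaks, 2 of the 7 kept opposite directions: Thy1 from pre-proB to proB and Bcl11b from proB to preB. Gata3 from proB to preB, not among the 7, was also opposite at that length. The share over all coding-gene windows was not computed at that length, so the 35.0% and 12.1% hold for the full lists alone. The stages of the Rescue libraries are those of the titles, which the source names contradict.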

How the results depend on the processing

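Over 36 results and 183 alternatives, 153 values stayed within 1.5 times the reported count or inside its exact interval, and 30 moved out. Window size (gene body alone, 10 kb and 100 kb), the limit to regions nearest a member and both other promoter windows moved none of the results they were applied to. Shortening the lists to 76465 peaks, or asking for a −log10 q of at least 10, left 0% of pre-proB regions with a WT and no Erg KO peak and 0% in WT and neither Erg-deficient pre-proB list. Over all regions these shares were 6.89% and 4.30% at 76465 peaks, and 5.13% and 2.62% at the stricter q. At 76465 peaks the share in an Erg-deficient list and no WT list was 4.17%, against 8.87% of all regions. At 38232 peaks Erg KO pre-proB had 5 member promoters with a peak, and WT and not Rescue proB was 12.8%, against 14.1% of all regions. When a peak was shared only at an overlap of 50% of both peaks, the share in an Erg-deficient list and no WT list was 18.0% and that in Rescue and not WT proB 16.4%. Shares over all regions were not computed for that rule. By source names, WT and not Rescue pre-proB was 22.8% and Rescue and not WT proB 18.5%, against 27.9% and 30.8% of all regions. Without centring, 4 shared regions were higher and 0 lower in Rescue. By percentile within the list (10 points), 15 were higher and 2 lower in Erg KO, and 12 higher and 2 lower in Rescue. In 400 bp, RBPJ was in 38.0%, EBF in 29.8% and the E-box in 40.5% of member regions, against 30.3%, 15.5% and 32.2% of all regions. The motif of Gata3 and its relatives was in 7.44% (3.46 to 13.7) against 16.2%, and TCF in 2.48% (0.514 to 7.07) against 8.41%, both outside the interval there and inside it in 200 bp. Shares of the stage-specific regions, whose alternatives were chosen after seeing the data, moved too. Of the regions in WT pre-proB and not WT proB, Rescue proB had 88.9% and Rescue preB 27.8% by source names, Rescue preB had 0% at 38232 peaks and 0% at the stricter q, and Erg KO had 100% at 76465 peaks and 100% at the stricter q. Over all such regions these shares were, in the same order, 93.8%, 33.1%, 17.1%, 15.7%, 90.1% and 92.9%. Of those in WT proB and not WT pre-proB, Rescue proB had 18.2% by source names, and Erg KO had 3.23% at 76465 peaks, 0% at 38232 and 4.35% at the stricter q. For all such regions the shares were 13.7%, 7.67%, 4.28% and 9.87%. The cause of these moves was not tested.

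Fragments below the calling limit are not listed, so at these depths a missing peak does not show a closed site.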

Other observations

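Some promoters of the B-lineage list had higher folds after the pre-proB stage, while others such as Blnk (48.1, 43.2 and 46.7 in WT pre-proB, proB and preB) and Ptprc (55.4, 45.8 and 47.1) did not. Pax5, the factor that commits cells to the B lineage, had a promoter fold of 3.68 in WT pre-proB and no peak in Erg KO or Rescue pre-proB, beside 28.1 and 40.3 in WT proB and preB and 29.8 and 45.8 in Rescue proB and preB. Vpreb1, part of the surrogate light chain, had 8.53 in WT pre-proB and none in the Erg-deficient pre-proB lists, with 55.6 and 21 in WT proB and preB and 25.2 and 16.9 in the Rescue ones. Cd79a, a signalling chain of the B-cell receptor, had 11.4 in WT, 3.57 in Rescue and no peak in Erg KO at the pre-proB stage. These genes were picked after their values were seen, each value is from 1 library and no difference was tested.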
